A study of Mus musculus with 4 samples.

Results

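The cells described here are fibroblasts of mouse pancreatic tumor grafts in which Clec3b, Dpt and 4 genes that go with them (Chl1, Svep1, Abi3bp and Sfrp1) were detected more often than the genes of any other fibroblast class. They were chosen by measured genes. A cell had to have at least 200 detected genes, at least 4 of 9 fibroblast genes (Col1a1, Col1a2, Col3a1, Col5a1, Lum, Pdgfra, Pdpn, Fap and Mmp2) and no unique molecular identifier (UMI) of Ptprc, the pan-leukocyte gene. Its detected genes were then counted in 4 lists of 6 genes each, and it was kept when the Clec3b list held the most, with at least 2 detected and no tie. The other lists were W (Wt1, Calca, Adgrd1, Ptgis, Pappa and Sntg1), A (Apod, Thbs4, Ptx3, Cilp, Tac1 and Gfpt2) and M (Fbn2, Col8a1, Col12a1, Galnt17, Cthrc1 and Tnc), and M cells are called myofibroblastic here. The rule found 647 Clec3b Dpt cells among 4244 cells that passed the fibroblast genes and 44554 cells in all, 1.45% of the whole. The levels of the genes in the rule are therefore a description and not a finding.

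The study grafted KPC cells, a pancreatic cancer line from a genetically engineered mouse model, into the pancreas and measured the tumors by droplet single-cell RNA sequencing (scRNA-seq). There were 4 libraries, 1 for each condition. Hosts were C57BL/6 mice, 7 months old by the labels and 12 months old by the study's methods, and all of them had been made obese by 24 weeks on a high-fat diet. Pdgfrb-TK hosts express a viral thymidine kinase from the Pdgfrb promoter, so that ganciclovir (GCV) kills proliferating cells in which that promoter is active. Pdgfrb-TK/GCV mice received GCV at 50 mg/kg and Pdgfrb-TK/PBS mice received phosphate-buffered saline (PBS). D-CAN mice were wild-type (WT) hosts that received D-CAN at 30 mg/kg, a peptide made to home to and kill adipose stromal cells (ASC), and WT/PBS mice received PBS. Treatment lasted 25 days. The Pdgfrb promoter is active in pericytes as well as in other stromal cells, and the tumor cells came from a single line. By the study's methods each library pooled cells of several tumors, while the titles name a single tumor. Differences between conditions thus stand without replicates and were not tested. Series of 4 values below follow a fixed order, with the Pdgfrb-TK hosts first (GCV, then PBS) and the wild-type hosts second (D-CAN, written WT/D-CAN in the plots, then PBS).

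Cancer-associated fibroblasts (CAF) of pancreatic tumors are commonly described along an axis. Inflammatory CAFs (iCAF) secrete cytokines, chemokines, complement and growth factors, and myofibroblastic CAFs (myCAF) carry contractile proteins and deposit dense matrix near the tumor cells. In normal organs a fibroblast population of the adventitia, marked by Pi16, Dpt and Ly6a, lies around vessels and is held to be a reservoir for other fibroblasts. Clec3b encodes tetranectin, a plasminogen-binding C-type lectin, and Dpt encodes dermatopontin, a small matrix protein that binds decorin. Sfrp1 encodes a secreted Wnt inhibitor, Chl1 an L1-family adhesion molecule, and Svep1 and Abi3bp large adhesive matrix proteins.

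The proximal promoters of 3 genes described below carry the letters TTGCNNAA or their reverse complement TTNNGCAA, a form of the sequence that factors of the C/EBP family bind. These sequences are the 250 bases before the RefSeq start on build GRCm38.p6, written 5′ to 3′ on the gene's own strand with the matched letters in capitals. Dpt is a gene of the rule, C3 (the central complement component) and Mmp3 (stromelysin) are among the leading genes of the cells, and these promoters were chosen for display after their matches were seen. Positions are chr1:164796413-164796662 on the plus strand for Dpt, chr17:57228137-57228386 on the minus strand for C3 and chr9:7445572-7445821 on the plus strand for Mmp3.
Dpt: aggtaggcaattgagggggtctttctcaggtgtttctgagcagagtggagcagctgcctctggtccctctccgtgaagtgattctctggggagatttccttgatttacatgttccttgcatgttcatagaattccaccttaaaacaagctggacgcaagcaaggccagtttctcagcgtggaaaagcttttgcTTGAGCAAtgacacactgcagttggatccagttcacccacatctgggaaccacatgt
C3: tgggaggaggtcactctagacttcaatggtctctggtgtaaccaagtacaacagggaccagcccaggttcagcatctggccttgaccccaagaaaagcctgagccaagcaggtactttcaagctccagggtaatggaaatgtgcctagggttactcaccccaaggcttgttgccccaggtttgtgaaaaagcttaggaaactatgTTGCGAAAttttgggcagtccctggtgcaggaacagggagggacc
Mmp3: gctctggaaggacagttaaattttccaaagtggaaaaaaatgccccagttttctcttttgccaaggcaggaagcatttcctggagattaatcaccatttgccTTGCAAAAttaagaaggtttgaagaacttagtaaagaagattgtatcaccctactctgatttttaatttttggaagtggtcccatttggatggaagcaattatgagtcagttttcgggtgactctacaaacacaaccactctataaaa
The match lies 57 to 50 bases before the start in Dpt, 45 to 38 bases before it in C3 and 148 to 141 bases before it in Mmp3. On both strands, 3142 of 32851 RefSeq promoters of the same length hold these letters, which is 9.56%. Among the 3 genes of the Clec3b list with an entry it was 1, and among the 12 promoters of 10 leading genes with an entry it was 2. A match is a description of letters and not a binding site.

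The libraries were not alike before any fibroblast was chosen. The deposited cells numbered 12280, 10495, 10786 and 11657, with totals of 127722502, 84020317, 130115741 and 155408336 UMIs, and 0, 26, 608 and 30 cells had under 200 genes. Cells with over 20% mitochondrial UMIs made up 4.48%, 8.42%, 29.3% and 18.2% of those kept. WT/PBS stood apart in heat shock genes. Summed over 11 such genes, the level in Clec3b Dpt cells was 3546, 3630, 4756 and 39673 counts per 1000000 UMIs of the class (CPM), and in KPC cells with tumor markers it was 6924, 5729, 6431 and 10560 CPM. Shares and gene lists compared with WT/PBS are for that reason given beside the comparison with Pdgfrb-TK/PBS, which differs from it in host genotype as well. Cell barcodes shared with another library numbered 108, 92, 97 and 95, and of the Clec3b Dpt cells 0, 0, 7 and 1 carried one.

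Clec3b Dpt cells were most frequent in D-CAN and least frequent in Pdgfrb-TK/GCV. The rule found 7 cells after GCV and 54 in the matching PBS library, 522 after D-CAN and 64 in WT/PBS, so that 80.7% of all of them came from D-CAN. As a share of all cells kept this was 0.057% (exact 95% interval 0.0229 to 0.117), 0.516% (0.388 to 0.672), 5.13% (4.71 to 5.58) and 0.55% (0.424 to 0.702). These and all later intervals cover counting error only. D-CAN had 9.32-fold the share of WT/PBS (7.18 to 12.3), and the Pdgfrb-TK/GCV share was 0.111-fold that of Pdgfrb-TK/PBS (0.0424 to 0.244). The PBS libraries were close to each other, with Pdgfrb-TK/PBS at 0.937-fold of WT/PBS (0.64 to 1.37), and D-CAN against Pdgfrb-TK/PBS gave 9.94-fold (7.5 to 13.4). Without the shared barcodes the folds were 9.35 and 0.111.

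The share of fibroblasts in general lay between those of the PBS libraries in D-CAN, and below both in Pdgfrb-TK/GCV. All cells that passed the fibroblast genes numbered 306, 535, 1190 and 2213, or 2.49%, 5.11%, 11.7% and 19% of cells, and in D-CAN they stood at 0.614-fold of WT/PBS (0.572 to 0.659) and 2.29-fold of Pdgfrb-TK/PBS (2.06 to 2.54). M cells stood at 0.19-fold (0.164 to 0.218) and W cells at 1.22-fold (0.907 to 1.63) of WT/PBS. Against Pdgfrb-TK/PBS the M cells stood at 1.66-fold (1.34 to 2.07) and the W cells at 0.417-fold (0.327 to 0.529), so the direction of both turned with the PBS library. Among fibroblast-gated cells, Clec3b Dpt cells made up 2.29%, 10.1%, 43.9% and 2.89%, which is 15.2-fold for D-CAN over WT/PBS (11.7 to 20) and 4.35-fold over Pdgfrb-TK/PBS (3.28 to 5.86). On this denominator the PBS libraries were not close, since Pdgfrb-TK/PBS was at 3.49-fold of WT/PBS (2.38 to 5.09). Pdgfrb-TK/GCV was at 0.227-fold of Pdgfrb-TK/PBS (0.087 to 0.5) and at 0.791-fold of WT/PBS (0.306 to 1.73), an interval that held equal shares. As shares of all cells kept, M cells after GCV were at 0.169-fold (0.109 to 0.255) and W cells at 0.751-fold (0.622 to 0.906) of their PBS library. With shares, more Clec3b Dpt cells and fewer cells of other kinds cannot be told apart.

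**Figure D1:**
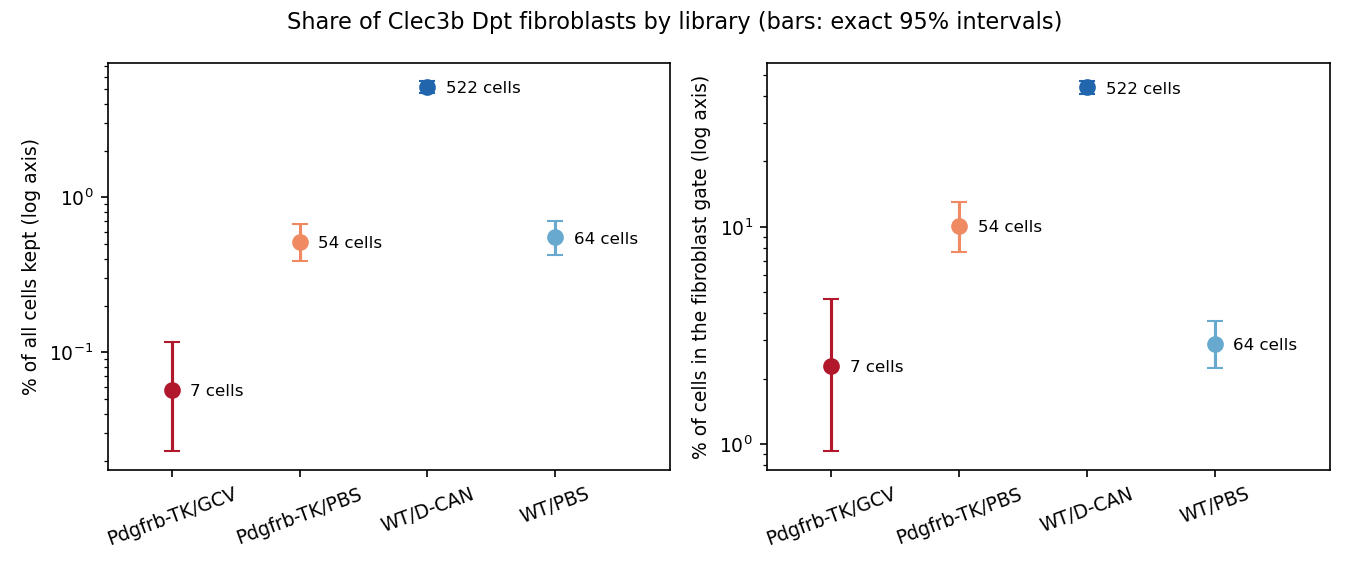
Share of Clec3b Dpt cells in each of the 4 libraries, as percent of all cells kept (left) and percent of the cells that passed the fibroblast genes (right), on log axes with exact 95% intervals. D-CAN lies highest on both axes, at 5.13% and 43.9%, and Pdgfrb-TK/GCV lowest, at 0.057% and 2.29%. On the right the Pdgfrb-TK/GCV interval (0.925 to 4.66) overlaps that of WT/PBS (2.23 to 3.68).

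The number of list genes detected per cell varied within each library. All 6 genes of the Clec3b list were detected in 2 of 7, 8 of 54, 255 of 522 and 16 of 64 cells. At the edge of the rule, cells kept with only 2 list genes numbered 0, 6, 18 and 7, and cells left out because a lone Clec3b list gene was their best count numbered 1, 5, 26 and 22. Cells ahead of the next list by only 1 gene numbered 5, 25, 167 and 33, and a further 16, 22, 127 and 87 cells were left out for a tie. Another 66, 126, 206 and 883 cells had 2 or more genes of the Clec3b list but fell in another class. The shares of Clec3b Dpt cells thus depend on this contest between lists, whose part in the folds was not tested. Detection depends on depth, and the median Clec3b Dpt cell had 10899, 4542.5, 9702 and 8708 UMIs. With cells of at least 2000 UMIs thinned to that number and shallower cells left out, the rule found 13, 49, 503 and 50 cells, and the folds of share were 0.223 for GCV and 12.2 for D-CAN. Of the cells described here, 6, 35, 412 and 20 were chosen in both ways, of the 7, 50, 483 and 60 that were deep enough.

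The 6 genes of the Clec3b list were each higher in D-CAN than in the PBS libraries and lowest in WT/PBS, apart from Abi3bp. Clec3b (chr9:123150946-123157432 on GRCm38) stood at 388, 289, 467 and 83.8 CPM in the Clec3b Dpt cells. Dpt (chr1:164796644-164824266) stood at 428, 523, 627 and 201 CPM, and Chl1 at 428, 479, 1176 and 185 CPM. Abi3bp was lowest in Pdgfrb-TK/GCV, where it rested on few cells, with 40.1, 216, 830 and 343 CPM. W cells held Clec3b at 2.41, 4.46, 83.3 and 0.646 CPM, so that those of D-CAN, with a UMI in 15 of 99 cells, were at the level of the WT/PBS Clec3b Dpt cells. In KPC cells with tumor markers Clec3b did not exceed 0.491 CPM in any library, and in M cells it did not exceed 1.09 CPM. Over all fibroblast-gated cells, whatever their class, Clec3b stood at 8.86, 27.5, 145 and 3.55 CPM and Dpt at 16.4, 53.5, 224 and 20 CPM.

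Fibroblast genes were present in every library, and markers of other cell types were present at levels that differed between libraries. The 9 fibroblast genes summed to 22577, 23355, 24975 and 14500 CPM in Clec3b Dpt cells. The Clec3b list itself summed to 3118, 3253, 5739 and 1609 CPM, and the A list to 375, 809, 1350 and 2636 CPM. In WT/PBS the A list was thus the higher of the pair, led by Apod at 1506 CPM, although the cells held more detected genes of the Clec3b list. The 8 tumor epithelial markers summed to 415, 4610, 589 and 1897 CPM, led by Krt8 or Krt18, against 5831, 8004, 5547 and 7773 CPM in KPC cells with tumor markers. Epcam, the defining gene of that list, was at 0, 19, 21.8 and 2.54 CPM. At least 2 epithelial markers were detected in 71.4%, 72.2%, 24.1% and 73.4% of Clec3b Dpt cells, beside 67.9%, 60.5%, 27.3% and 63.1% of cells with Ptprc, and D-CAN was the lowest library in both. The 6 endothelial markers summed to 0, 12.7, 13.2 and 194 CPM, with Egfl7 highest at 48.2 CPM in WT/PBS. The 8 macrophage markers summed to 53.5, 34.9, 31.8 and 24.1 CPM. Of the 6 pericyte markers the sum was 214, 41.2, 88.2 and 26.6 CPM. The 5 mesothelial markers summed to 40.1, 1062, 108 and 335 CPM, led in each by Krt19, which tumor cells also express, and Upk3b and Lrrn4 had no UMI in any library. The part of these RNAs in the differences below was not tested, beyond the values without such cells given in the closing section.

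Apart from the genes of the rule, 15 genes stood out most evenly from the W, A and M cells of a library pooled together. These were C4b, Tnxb, Mmp3, Vegfd, Pi16, Dpep1, Gsn, Ly6a, Hp, Serpina3n, Thsd7a, Zbtb16, Ifi207, C3 and Adamts5. They are those with the highest smallest ratio over the 3 libraries with at least 20 Clec3b Dpt cells. Of 2903 genes that passed the filter in all 3, 55 were higher by 2-fold or more in each. Because the cells were chosen by their genes this is a description of the class. A cells were a small part of the pool, with 675392 UMIs in WT/PBS beside 23421069 in M cells. In D-CAN the A cells held 40588 UMIs and the M cells 4596818, and Pdgfrb-TK/PBS had 1 A cell. The ratios thus do not show whether the 15 genes stood out from A cells alone.

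Several of these genes are known from adventitial fibroblasts. Pi16, a peptidase inhibitor homolog that marks that population, stood at 388, 701, 430 and 136 CPM, against 2.76, 8, 57.9 and 14.8 CPM in M cells. Tnxb, which encodes tenascin X, stood at 214, 323, 281 and 108 CPM and did not exceed 12.4 CPM in M cells. Ly6a, the Sca-1 antigen of mesenchymal progenitors, stood at 1017, 640, 1015 and 240 CPM. For each of these 3 genes WT/PBS was the lowest library. Gsn, which encodes the actin-severing protein gelsolin, had another order, with 629, 828, 1156 and 1292 CPM.

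Among the 15 were also the complement genes C4b and C3 and the acute phase genes Hp and Serpina3n. C4b stood at 683, 526, 711 and 582 CPM in Clec3b Dpt cells and 27.6, 18, 40.9 and 16.5 CPM in M cells, although its near-identical neighbor C4a makes its count uncertain. C3 stood at 4135, 2470, 7785 and 1539 CPM, with D-CAN highest and WT/PBS lowest. The acute phase genes had no such order. Hp, which encodes haptoglobin, stood at 495, 504, 675 and 1240 CPM, and Serpina3n, a protease inhibitor, at 2931, 951, 1197 and 1726 CPM. Matrix proteases were present in every library. Mmp3 stood at 790, 314, 793 and 819 CPM, and the aggrecanase Adamts5 at 669, 491, 385 and 178 CPM. The lymphangiogenic factor Vegfd stood at 549, 228, 180 and 114 CPM, and the transcription factor Zbtb16 at 93.7, 203, 50.3 and 88.8 CPM. The dipeptidase gene Dpep1 stood at 228, 304, 250 and 211 CPM, Thsd7a at 294, 203, 195 and 197 CPM, and the interferon-inducible Ifi207 at 53.5, 114, 87.7 and 174 CPM.

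**Figure D2:**
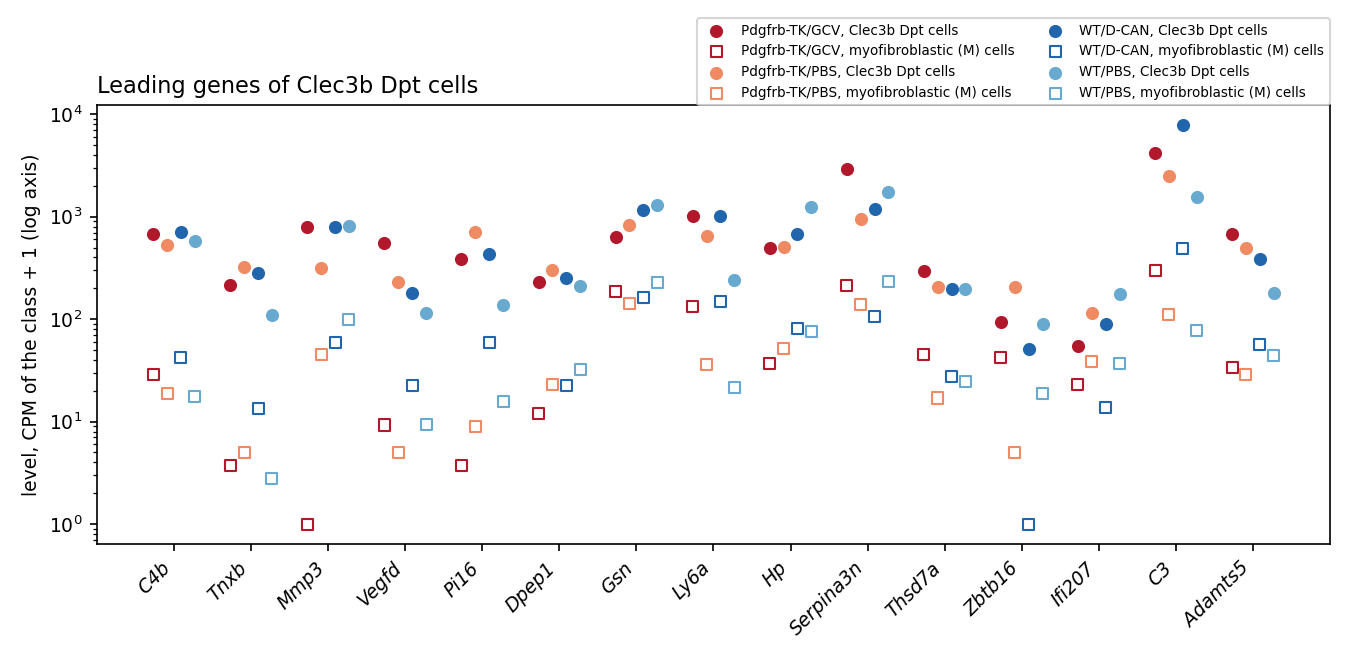
Levels (CPM with 1 added, log axis) of the 15 leading genes in Clec3b Dpt cells (filled circles) and in M cells (open squares) of each library, which are single values without error bars. In each library C4b lies over 500 CPM in Clec3b Dpt cells and under 50 CPM in M cells.

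Set against M cells of the same library, the Clec3b Dpt cells carried more iCAF RNA and less myCAF RNA. For the iCAF list, without the genes of the rule, the median log2 ratio was 3.03 for Pdgfrb-TK/PBS, 2.56 for D-CAN and 1.80 for WT/PBS. Over all genes tested it was -0.12, -0.10 and -0.15. Of 16 iCAF genes, those that passed the filter and were higher by 2-fold or more numbered 6 of 6, 12 of 14 and 12 of 15. The share of all genes tested that did so was 4.61% of 2211, 9.18% of 4061 and 6.78% of 3658. The filter asked for 50 CPM in the higher class, a limit that either class could meet alone. Genes low in both, such as Il6 in Pdgfrb-TK/PBS, were left out. These counts and medians thus describe the genes that passed and not the whole lists. Both classes were cut from measured genes of the same cells, so the difference between them is a description. For the 15 myCAF genes the medians were -1.65, -2.32 and -1.49, with 12 of 12, 11 of 12 and 9 of 14 lower by 2-fold or more, against 6.38%, 6.89% and 5.66% of all genes. Complement genes had medians of 2.07, 2.30 and 2.62, with 5 of 6, 9 of 10 and 8 of 9 higher by 2-fold or more. That list shares C3, C4b and Cfd with the iCAF list, so the lists are not independent. Over W cells the iCAF and myCAF differences were smaller. The iCAF medians ran from 0.85 in WT/PBS to 1.68 in Pdgfrb-TK/PBS and the myCAF medians from -0.94 to -0.73, beside -0.24 to -0.06 for all genes tested. Complement medians over W cells were 1.11, 1.11 and 2.58, so that in WT/PBS the value was close to that over M cells.

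Named genes followed these lists with exceptions. Acta2, which encodes smooth muscle actin, was at 26.8, 31.7, 92.8 and 62.2 CPM in Clec3b Dpt cells and 777, 567, 1136 and 544 CPM in M cells. Tagln (transgelin) was at 107, 25.4, 156 and 67.3 CPM against 684, 597, 1490 and 682 CPM. Postn, a matrix protein of activated fibroblasts, was nearer between the classes, with 294, 380, 229 and 350 CPM against 813, 965, 876 and 1013 CPM. On the iCAF side the chemokine Cxcl12 was at 977, 393, 433 and 426 CPM against 22.1, 51, 39.4 and 53.6 CPM. Il6, the cytokine from which iCAFs are best known, did not mark the class in every library. Its level was 53.5, 6.34, 277 and 355 CPM, against 63.4, 4, 58.7 and 162 CPM in M cells. Dcn, which encodes decorin, was at 4604, 4046, 4356 and 4977 CPM, and M cells had 728, 579, 605 and 723 CPM. Bgn, the related proteoglycan biglycan, did not separate them, with 2302, 1896, 2866 and 2543 CPM against 2260, 2100, 2292 and 2427 CPM.

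**Figure D3:**
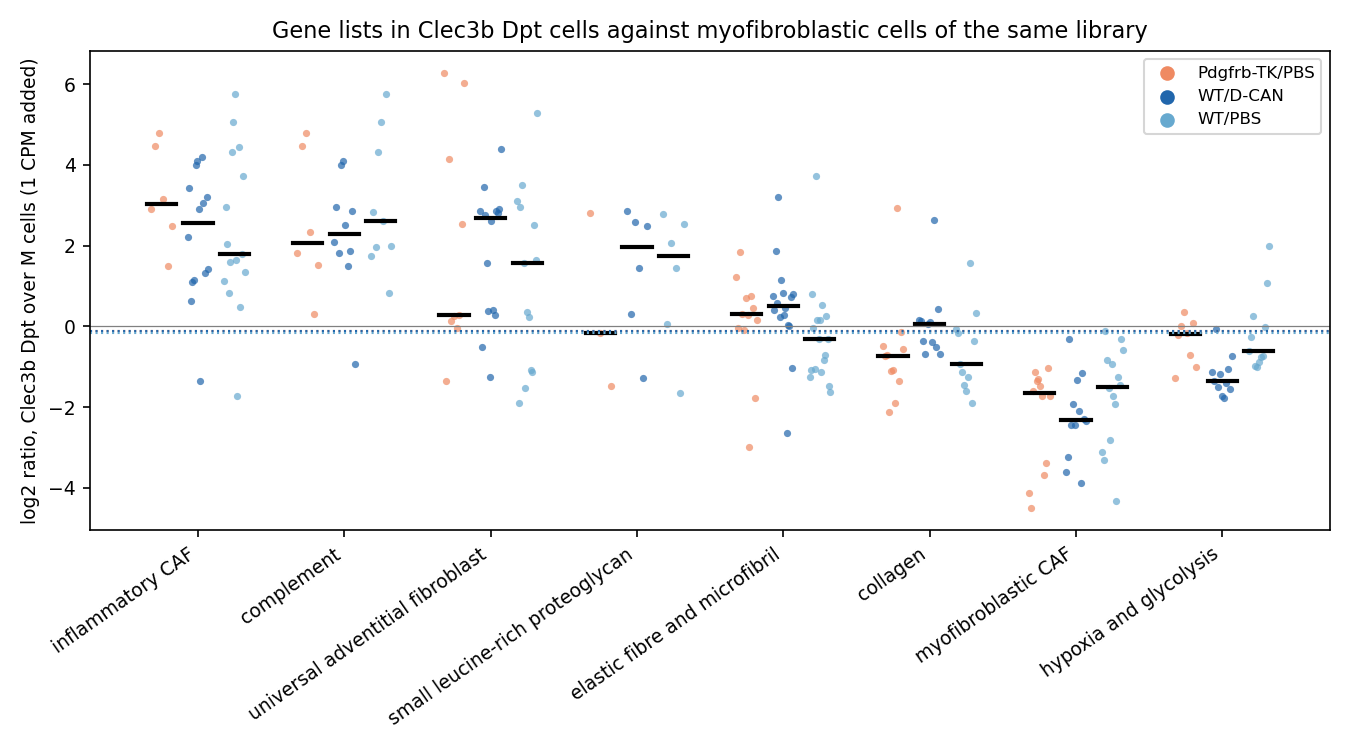
Log2 ratio of the level in Clec3b Dpt cells over that in M cells of the same library, for each gene of the inflammatory (iCAF), myofibroblastic (myCAF) and complement lists that passed the filter in that library (points) with the list median (bar), beside 5 further lists. Dotted lines mark the median of all genes tested. Medians of the iCAF list lie between 1.80 and 3.03 and those of the myCAF list between -2.32 and -1.49.

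D-CAN and WT/PBS were then compared within the Clec3b Dpt cells. The cells chosen in these libraries were not alike. In WT/PBS the A list summed to 2636 CPM and the Clec3b list to 1609 CPM, and in D-CAN to 1350 and 5739 CPM. After thinning, 20 of 60 deep enough cells of WT/PBS were chosen again, and 412 of 483 of D-CAN. The differences below may thus lie between unlike fibroblasts, which was not tested. Of 4027 genes that passed the filter (100 UMIs in both libraries together and 50 CPM in the higher), 795 were higher in D-CAN by 2-fold or more, which is 19.7%, and 417 were lower, which is 10.4%. Clec3b Dpt cells had 5700337 UMIs in D-CAN and 788010 in WT/PBS, so a gene with UMIs only in WT/PBS had to reach a higher CPM to pass than one with UMIs only in D-CAN, and the balance of higher and lower genes depends in part on the filter, with 2424 higher and 892 lower at 20 UMIs and 10 CPM. The median log2 ratio of all genes was 0.19, so list values are to be read against that shift. With ratios centred on the median gene the counts were 630 and 563. Against Pdgfrb-TK/PBS, 396 of 3933 genes (10.1%) were higher in D-CAN and 157 (3.99%) lower. The PBS libraries themselves differed, with 157 of 1739 genes (9.03%) higher in Pdgfrb-TK/PBS than in WT/PBS and 254 (14.6%) lower. In M cells, D-CAN over WT/PBS gave 273 of 3980 genes (6.86%) higher and 156 (3.92%) lower. These comparisons share libraries, so they are given side by side and not as independent.

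Many genes of the universal adventitial fibroblast were higher in D-CAN than in WT/PBS, and fewer were higher than in Pdgfrb-TK/PBS. Of 16 in the list 15 passed the filter, 10 were higher by 2-fold or more and 3 lower, and their median log2 ratio was 1.46. Against Pdgfrb-TK/PBS it was 0.36 with 2 of 15 higher and 2 lower, and in M cells (D-CAN over WT/PBS) it was 0.40 with 4 of 10 higher and 1 lower. Of all genes tested, 19.7% were higher and 10.4% lower than in WT/PBS, and 10.1% and 3.99% against Pdgfrb-TK/PBS. In M cells these shares were 6.86% and 3.92%, and the counts of the lists below are to be read beside the same shares. Col15a1, a basement membrane collagen of adventitial fibroblasts, was at 174, 346, 646 and 100 CPM, 6.45-fold higher in D-CAN than WT/PBS (5.16 to 8.16). Cd248, which encodes endosialin, was at 214, 152, 196 and 20.3 CPM, so that WT/PBS stood below the other 3 libraries. Penk (proenkephalin) was at 26.8, 34.9, 315 and 40.6 CPM and was high in D-CAN alone of the 4 libraries, 7.75-fold above WT/PBS (5.47 to 11.4) and 9.03-fold above Pdgfrb-TK/PBS (5.03 to 18.1). Pi16 was 3.17-fold higher in D-CAN than WT/PBS (2.61 to 3.88) but 0.614-fold of Pdgfrb-TK/PBS (0.535 to 0.708). The members that were lower were Anxa3, Has1 and Sema3c, and Anxa3 and Sema3c are also abundant in KPC cells with tumor markers, at 396 and 83.4 CPM in WT/PBS.

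Elastic fiber genes, a list that shares Fbn1 and Mfap5 with the one before, had a similar arrangement. Of 17 genes 16 passed, 9 were higher in D-CAN than WT/PBS and 1 was lower, with a median log2 ratio of 1.20, against 0.30 over Pdgfrb-TK/PBS. On the cells chosen after thinning it was 0.41 over WT/PBS. In M cells the median was 0.14, with 1 of 16 higher and 2 lower. Eln, which encodes elastin, was at 388, 279, 445 and 76.1 CPM, and Emilin1, an elastic fiber glycoprotein, at 174, 117, 302 and 16.5 CPM. WT/PBS was the low library for both, 5.84-fold below D-CAN for Eln (4.52 to 7.67) and 18.3-fold for Emilin1 (10.7 to 34.5). In M cells Eln was at 57.9, 118, 265 and 183 CPM. Fbn1 (fibrillin 1) was at 749, 758, 935 and 302 CPM, and Ltbp2, the member that was lower, at 40.1, 22.2, 36.8 and 82.5 CPM.

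Some other collagens were higher in D-CAN. The list leaves out the collagens of the rule. Of its 14 genes 11 passed, 5 were higher by 2-fold or more than in WT/PBS, and the median log2 ratio was 0.92, and against Pdgfrb-TK/PBS it was 0.80 with 2 of 11 higher. The shares over all genes were 19.7% and 10.1%. In M cells the collagen median was 0.35, and on the Clec3b Dpt cells chosen after thinning it was 0.39 against WT/PBS. Col6a1, a chain of the beaded collagen VI, was at 348, 409, 711 and 266 CPM, and Col6a3 at 134, 197, 399 and 198 CPM. Of the proteases and their inhibitors, 6 of 14 that passed were higher than in WT/PBS and 1 lower, with a median of 0.82. Against Pdgfrb-TK/PBS it was 0.41 with 2 of 14 higher. Adamts15, a versican-cleaving protease, was at 241, 209, 262 and 17.8 CPM, 14.7-fold higher in D-CAN than WT/PBS (8.75 to 27), and Mmp3 at 0.969-fold (0.892 to 1.05).

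The iCAF list as a whole did not lie on one side in D-CAN over WT/PBS. Of 13 genes that passed, 3 were higher and 4 lower by 2-fold or more, and the median log2 ratio was 0.02, with the sign depending on the processing. Against Pdgfrb-TK/PBS it was 1.22 with 8 of 13 higher. Igf1, an insulin-like growth factor, was at 321, 786, 1783 and 109 CPM, 16.3-fold higher in D-CAN than WT/PBS (13.2 to 20.4) and 2.27-fold higher than Pdgfrb-TK/PBS (2 to 2.58). C3 was 5.06-fold higher than in WT/PBS (4.78 to 5.36) and 3.15-fold higher than in Pdgfrb-TK/PBS (2.94 to 3.39). Both genes were thus highest in D-CAN, and the intervals did not overlap those of any other library. Cxcl12 had a ratio of 1.02 to WT/PBS (0.907 to 1.14) and 1.1 to Pdgfrb-TK/PBS (0.92 to 1.33). Cfd, the complement protease adipsin that is abundant in fat cells, had UMIs only in WT/PBS among the 4 libraries, at 118 CPM, which is at least 224-fold higher than in D-CAN against a floor of 3 UMIs for a library. With 93 UMIs in all, Cfd did not pass the filter and is in none of the counts.

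Of the other complement genes, Serping1 (C1 inhibitor) was at 2543, 1512, 2430 and 1643 CPM and C1s1, a protease of the classical pathway, at 442, 349, 616 and 268 CPM. Of 13 complement genes 9 passed, 3 were higher in D-CAN than WT/PBS and none of the 9 lower, beside 19.7% and 10.4% of all genes. With so few members these counts are values only. The median log2 ratio was 0.72, 0.57 against Pdgfrb-TK/PBS and 0.83 in M cells. C3 led the list in size. C4b stood at 1.22-fold of WT/PBS (1.11 to 1.35).

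Chemokines turned with the PBS library they were set against. Their list shares Ccl2, Ccl7, Cxcl1 and Cxcl12 with the iCAF list. Against WT/PBS 12 of 15 passed, 6 were lower in D-CAN and 2 higher, with a median log2 ratio of -1.33, which was -0.62 without cells that carry markers of other types. Against Pdgfrb-TK/PBS 9 of 11 were higher, with a median of 1.99. Ccl2, which attracts monocytes, was at 26.8, 117, 369 and 1675 CPM, Cxcl1, which attracts neutrophils, at 0, 60.2, 243 and 1947 CPM, and Cxcl2 at 40.1, 25.4, 85.6 and 920 CPM. For each of the 3, WT/PBS was the high library and D-CAN came next. In M cells Ccl2 was at 2.76, 3, 172 and 943 CPM, in the same order of libraries. Cxcl13, a B cell attractant, had another order, with 964, 79.3, 22.8 and 336 CPM. Cxcl14 was at 107, 184, 917 and 1349 CPM.

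**Figure D4:**
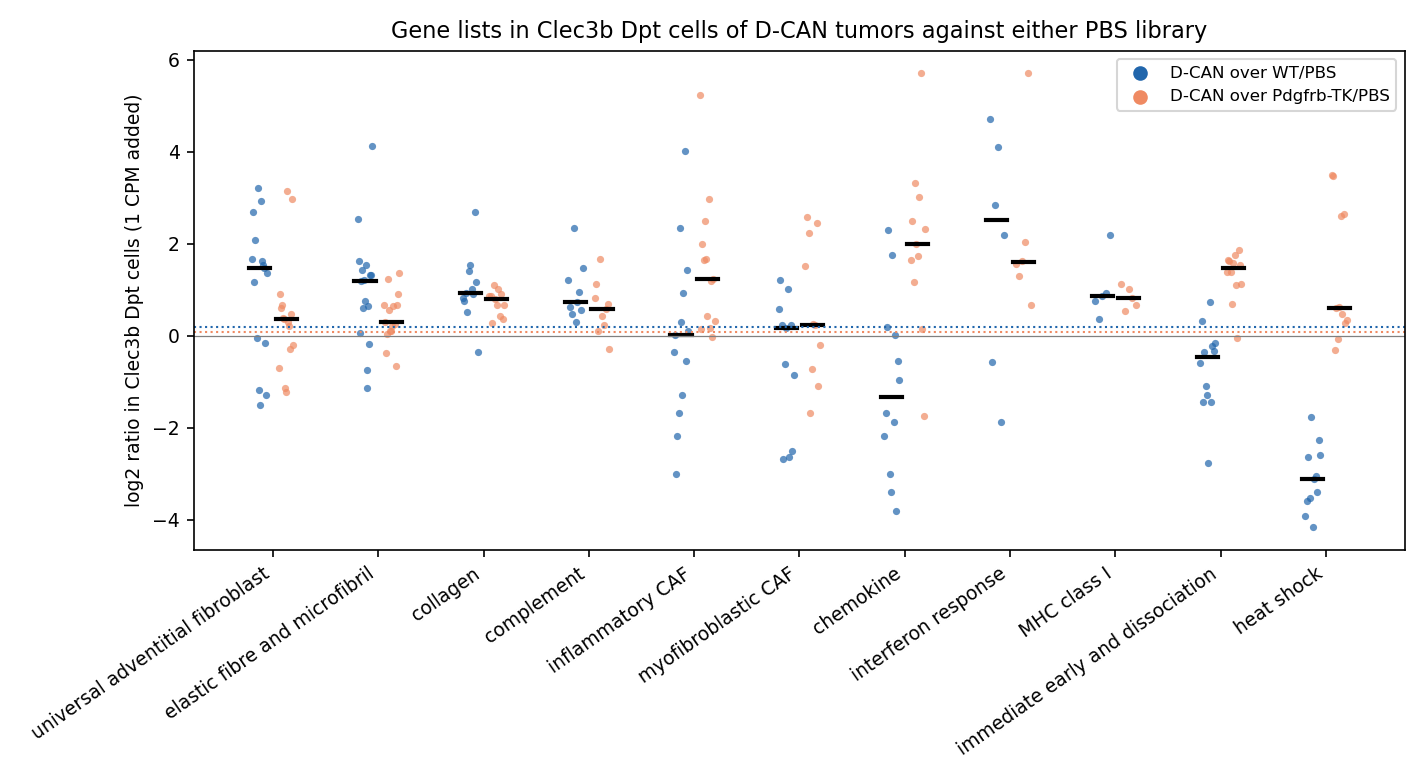
Median log2 ratio of each gene list in Clec3b Dpt cells for D-CAN over WT/PBS and D-CAN over Pdgfrb-TK/PBS (black bars), with each gene that passed the filter as a point and the median of all genes tested as a dotted line. The universal adventitial list has medians of 1.46 and 0.36, and the heat shock list turns from -3.11 to 0.61 with the PBS library.

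Some interferon response genes were higher in D-CAN, in Clec3b Dpt cells as in M cells and in KPC cells with tumor markers. Few of them passed the filter in Clec3b Dpt cells. Of 19 genes 6 did, with a median log2 ratio of 2.51 over WT/PBS. Of these, 4 (Isg15, Iigp1 and Psmb8 among them) were higher than in WT/PBS and 1 lower, the chemokine gene Cxcl10. The limit of 50 CPM could be met through D-CAN alone, as Iigp1 did, so the filter favored genes that are high there. This median and those that follow thus describe the genes that passed and not the whole list, whose sums are given below. Against Pdgfrb-TK/PBS the median was 1.60, and on the cells chosen after thinning 1.50 over WT/PBS. In M cells 7 of 9 were higher with a median of 2.08, and in KPC cells with tumor markers the median was 3.21. Summed over the list, Clec3b Dpt cells had 201, 203, 625 and 335 CPM, M cells 132, 436, 1066 and 275 CPM, and KPC cells with tumor markers 107, 100, 710 and 91 CPM. Iigp1, an interferon-induced GTPase, was at 40.1, 19, 80.9 and 3.81 CPM, 21.2-fold higher in D-CAN than WT/PBS (7.22 to 103). The MHC class I list summed to 1285, 1268, 2347 and 1393 CPM in Clec3b Dpt cells, and B2m, its invariant chain, stood at 562, 514, 1045 and 576 CPM. D-CAN was the highest library for each of these sums.

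Heat shock genes were higher in WT/PBS than in the other libraries, and immediate early genes were highest there in sum. All 11 heat shock genes passed and were lower in D-CAN than WT/PBS, with a median log2 ratio of -3.11, and lower in Pdgfrb-TK/PBS than WT/PBS, with a median of -4.14. Against Pdgfrb-TK/PBS the D-CAN median was 0.61. Hspb1, a small chaperone, was at 294, 292, 449 and 8048 CPM, and Hsp90aa1 at 281, 333, 508 and 5876 CPM. Hspa1a, whose reads are hard to tell from those of Hspa1b, was at 53.5, 28.5, 333 and 5070 CPM. In M cells Hspb1 was at 375, 218, 317 and 3268 CPM and in KPC cells with tumor markers at 72.8, 41.9, 147 and 958 CPM, so WT/PBS was high in each class. The 12 immediate early genes summed to 2422, 2039, 4919 and 8992 CPM in Clec3b Dpt cells, 1971, 1425, 2971 and 5094 CPM in M cells, and 2825, 1988, 2595 and 3171 CPM in KPC cells with tumor markers. Of them, 5 of 12 were lower in D-CAN than WT/PBS, and 10 of 12 higher than in Pdgfrb-TK/PBS, with medians of -0.48 and 1.47. Without cells that carry markers of other types the former was -1.27. Jun was at 281, 219, 674 and 1836 CPM. Jun encodes a subunit of the AP-1 transcription factor.

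**Figure D5:**
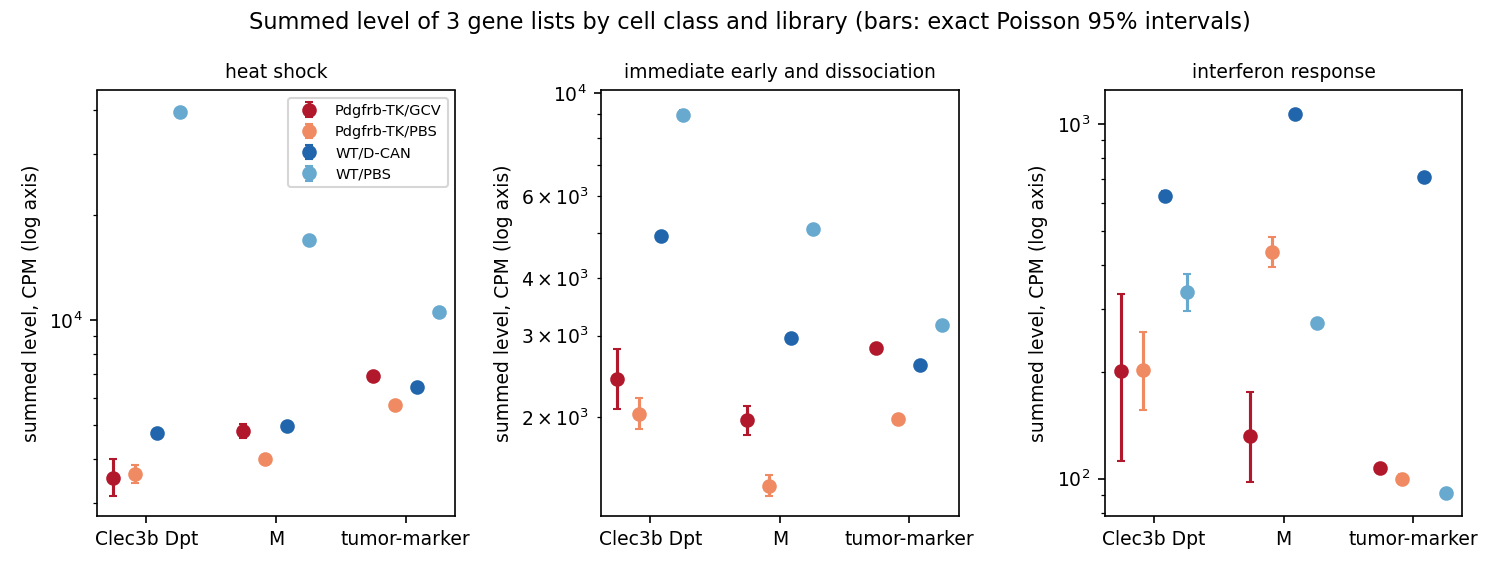
Summed level (CPM, log axis) of heat shock, immediate early and interferon response genes in Clec3b Dpt cells, M cells and KPC cells with tumor markers of each library, with exact 95% Poisson intervals. Heat shock genes reach 39673 CPM in the Clec3b Dpt cells of WT/PBS against at most 4756 CPM in the other libraries.

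The largest differences in favor of D-CAN over WT/PBS included genes with no UMI in the 64 WT/PBS cells. Spon2, which encodes a secreted matrix protein, was at 187, 22.2, 206 and 0 CPM, at least 54.1-fold higher in D-CAN than WT/PBS. A2m (alpha-2-macroglobulin) was at 13.4, 6.34, 113 and 0 CPM, at least 29.8-fold higher. Barx1, a homeobox gene of stomach mesenchyme, was at 13.4, 12.7, 80.5 and 0 CPM (at least 21.2-fold), and the non-coding Hand2os1 at 26.8, 12.7, 77.4 and 0 CPM (at least 20.3-fold). In Pdgfrb-TK/PBS these genes stood lower than in D-CAN, and in Pdgfrb-TK/GCV the last 3 rested on 1 or 2 UMIs. Ctrb1, an acinar digestive enzyme, was at 40.1, 0, 75.4 and 0 CPM, and KPC cells with tumor markers in D-CAN had 102 CPM of it.

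Of the remaining 5, Aldh1a2 rested on the most UMIs. It makes retinoic acid, and it was at 201, 63.4, 710 and 20.3 CPM, 35-fold higher in D-CAN than WT/PBS (21.5 to 61.3) and 11.2-fold higher than Pdgfrb-TK/PBS (7.24 to 18.4). M cells had 226, 123, 315 and 26.8 CPM of Aldh1a2, so WT/PBS was low there as well. Fign was at 120, 9.51, 159 and 3.81 CPM, a ratio of 41.9 (14.3 to 203). Crocc2, Tppp3 and Frem1 each had 1 UMI in WT/PBS. Crocc2 was at 13.4, 9.51, 92.1 and 1.27 CPM with a ratio of 72.6 (13 to 2872), Tppp3 had a ratio of 67.6 (12.1 to 2675), and Frem1 a ratio of 49.6 (8.85 to 1966).

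In the other direction Prg4 had the largest log2 ratio with 1 CPM added among genes that passed the filter. It encodes lubricin, the lubricant of joints and serous surfaces, and it was at 120, 285, 16.5 and 1261 CPM, 76.5-fold lower in D-CAN than WT/PBS. It was detected in 45 of 64 WT/PBS cells and 37 of 522 D-CAN cells. Il1rl1, the receptor of IL-33, was at 0, 0, 1.58 and 146 CPM, and Gdf15, a stress-induced cytokine, at 0, 0, 4.74 and 112 CPM. Both were nearly limited to WT/PBS. The chaperone genes Hspb1, Hspa1a and Dnaja4 were among the 10, and Dnaja4 was at 13.4, 12.7, 28.1 and 524 CPM. Lmcd1, Bmpr1b (a BMP receptor) and Plagl1 were at 250, 104 and 108 CPM in WT/PBS and 13.7, 6.32 and 6.67 CPM in D-CAN. Tff1, a mucosal peptide of the tumor cells, was at 80.3, 2771, 29.8 and 438 CPM, against 1344, 6360, 749 and 2233 CPM in KPC cells with tumor markers.

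Genes of adipose stroma and of the agents' targets were read in the same cells. Pdgfrb, whose promoter drives the thymidine kinase, was at 53.5, 76.1, 182 and 41.9 CPM in Clec3b Dpt cells, below the 182, 360, 270 and 128 CPM of M cells in every library. Dcn, which encodes the protein core to which D-CAN is directed, differed little between libraries, with D-CAN at 0.875-fold of WT/PBS (0.846 to 0.905) and 1.08-fold of Pdgfrb-TK/PBS (1.02 to 1.14). Of 15 adipose genes 11 passed, 4 were higher in D-CAN than WT/PBS and 4 lower, with a median log2 ratio of 0.07. Against Pdgfrb-TK/PBS 2 of 10 were higher and 1 lower, with a median of 0.57. Lpl (lipoprotein lipase) was at 361, 298, 569 and 93.9 CPM and the BMP modulator Bmper at 214, 349, 430 and 97.7 CPM. Fabp4, a fatty acid carrier, went the other way, with 1111, 273, 47 and 562 CPM, and Cd36, a fatty acid transporter, had UMIs only in WT/PBS, at 40.6 CPM. Adipoq, the defining fat cell marker, was at 7.61 CPM in WT/PBS and had no UMI in the other libraries, and the endothelial markers, whose cells also express Fabp4 and Cd36, were highest in WT/PBS as given above. Their part in these levels was not tested.

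The Pdgfrb-TK/GCV library had 7 Clec3b Dpt cells and 74722 UMIs in them, so only its values are given. Saa3, an acute phase gene, was at 6892 CPM there, against 495, 1090 and 280 CPM in the other libraries. A UMI of Saa3 was detected in 4 of the 7 cells. Cxcl12 at 977 CPM, Cxcl13 at 964 CPM, Serpina3n at 2931 CPM and Vegfd at 549 CPM were also highest in that library. Cxcl1, Ccl7, Has1 and Il1rl1 had no UMI. M cells of Pdgfrb-TK/GCV had 68.9 CPM of Saa3.

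Clec3b Dpt cells of a library were not uniform. With each cell thinned to 2000 UMIs, the iCAF genes gave a median of 10, 14, 28 and 18.5 UMIs per cell, from 7, 50, 483 and 60 cells deep enough. The quartiles in D-CAN were 13 and 43 with a highest value of 131, and in WT/PBS they were 8 and 40, so the libraries overlapped widely. At least 3 iCAF genes were detected in 85.7%, 74%, 93.2% and 86.7% of the cells. M cells had medians of 1, 1, 3 and 3 UMIs. The myCAF genes gave medians of 4, 3, 3 and 6 UMIs in Clec3b Dpt cells and 15, 17, 21 and 19 in M cells. Universal adventitial genes gave 10, 8.5, 14 and 7 UMIs, and complement genes 19, 15, 25 and 11.5. Immediate early genes gave 6, 2, 7 and 17.5 UMIs, which repeats the order of the summed levels. None of 14 proliferation genes was detected in 3 of 7, 39 of 50, 362 of 483 and 53 of 60 of the thinned cells.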

How the data were processed

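The authors counted UMIs per gene and cell and deposited these counts without normalization, 1 matrix per library. Their methods name STAR with mm10 and Ensembl 93 through Cell Ranger, whose version differs between the methods and the deposited headers (7.0.0). All 4 libraries were used. The label protocols describe nuclei of another tissue, so conditions came from the titles. No cell annotation was used. Summed counts of a class were given as CPM, with Poisson intervals (exact), shares have exact Clopper-Pearson intervals and folds exact conditional binomial intervals, all at 95% (Python 3.11.15, numpy 2.4.6, scipy 1.17.1, pandas 2.3.3). Log2 ratios had 1 CPM added to each side. Intervals of list medians, used only for the alternative settings, were normal approximations from counting error. No test was made, because each condition has 1 library. The filter on low values asked for 100 UMIs over both libraries and for 50 CPM in 1 of them. Named are the rule and list genes, the 10 largest ratios in each direction for D-CAN over WT/PBS and the 15 leading genes. Mitochondrial genes and Gm and Rik models are not named. KPC cells with tumor markers failed the fibroblast genes, had no Ptprc UMI and at least 3 of 8 epithelial markers. Doublets were not removed. Scrublet (scanpy 1.11.5) called under 0.5% of cells, which does not show that doublets were rare. Values without the highest 8% of its scores are in the closing section. Members and lists were chosen with earlier results of these data known. Positions are from GENCODE on GRCm38 and promoters from RefSeq. The steps were tested on simulated data.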

Additional observations from a re-analysis of the deposited data

Results flagged for a closer look

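The share of Clec3b Dpt cells stood on opposite sides of PBS after the treatments, at 0.111-fold of Pdgfrb-TK/PBS after GCV and 9.32-fold of WT/PBS after D-CAN. The difference between these was not tested, since each condition has 1 library, and the hosts differ in genotype.

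The feature tables of the wild-type libraries also list reporter sequences, GFP and Tdtomato, which enter no comparison above. The labels do not say which cells carry them. A GFPcds UMI was detected in 2.87% of Clec3b Dpt cells in D-CAN (18 UMIs in 15 cells) and 17.2% in WT/PBS (133 UMIs in 11 cells, 90 of them in 1 cell). A Tdtomato UMI was detected in 4.21% (26 UMIs in 22 cells) and 21.9% (26 UMIs in 14 cells). Over all cells kept the shares were 4.48% and 7.61% for GFPcds and 5.24% and 10.5% for Tdtomato, and in M cells 4.39% and 17.6% for GFPcds and 9.65% and 28.6% for Tdtomato. These features are given because they hold UMIs outside the comparisons above. No share in cells known to lack a reporter was at hand, and in D-CAN the shares of Clec3b Dpt cells lay below those of all cells kept, so they are read as values only and not as expression.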

How the results depend on the processing

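Across 187 values under alternative settings, 99 stayed within their interval or within 1.5 times a count, 80 moved beyond it and 8 turned from a value whose interval did not hold 0. For a list median that interval was an approximation from counting error and left out the spread between genes. It is therefore narrow, and the numbers that moved or turned depend on it. The 8 changes of sign of the iCAF median, whose interval held 0, are among those that moved. The folds of share lay between 0.104 and 0.227 for GCV and between 8.94 and 15.2 for D-CAN, the highest being the share of fibroblast-gated cells (15.2). That share over Pdgfrb-TK/PBS, a change of denominator and control at once, was 4.35-fold. For GCV the same change, with WT/PBS as control, gave 0.791-fold (0.306 to 1.73), an interval that held equal shares. The iCAF median for D-CAN over WT/PBS (0.02) was -0.22 as a mean over cells, -0.17 with a filter of 20 UMIs and 10 CPM, -0.07 without mitochondrial and ribosomal protein genes in the total, -0.17 when centred on the median gene, -0.05 without the highest 8% of Scrublet scores, -0.28 without cells that carry markers of other types, -0.15 with at least 3 Clec3b list genes, -0.26 on the cells chosen after thinning and 1.22 against Pdgfrb-TK/PBS. The myCAF median (0.16) turned to -0.61 as a mean over cells, -0.03 when centred, -0.09 without the highest Scrublet scores, -0.31 on the cells chosen after thinning and -0.14 without cells with markers of other types. The counts of 795 higher and 417 lower became 2424 and 892 with the lower filter, 396 and 157 against Pdgfrb-TK/PBS, 630 and 563 when centred, and 844 and 526 without mitochondrial and ribosomal protein genes. Against Pdgfrb-TK/PBS the medians of chemokines (-1.33 to 1.99), immediate early genes (-0.48 to 1.47) and heat shock genes (-3.11 to 0.61) turned. Under the other settings chemokines ranged from -1.52 to -0.62, immediate early genes from -1.27 to -0.47 and heat shock genes from -4.10 to -3.05, and without cells that carry markers of other types they stood at -0.62, -1.27 and -4.10. These 3 lists, 5 others and the genes of cells chosen after thinning were added to the alternatives after the data were seen. Under the settings other than the PBS library, the medians ranged from 1.07 to 1.49 for universal adventitial, 0.41 to 1.22 for elastic fiber, 0.39 to 1.07 for collagen, 0.53 to 0.91 for complement and 1.50 to 3.18 for interferon response genes. The cause of each of these moves was not tested. Over M cells, the iCAF median stayed between 1.59 and 3.18 and the myCAF median between -2.51 and -1.46 in 12 values each. Leaving out cells with at least 2 markers of another type left 2, 15, 383 and 17 Clec3b Dpt cells. No paired analysis was possible because each condition has 1 library and no test was made.

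The rule reads detected genes, so a Clec3b Dpt cell at low depth can be missed. In Pdgfrb-TK/GCV, 7 cells leave a gene at 40.1 CPM (3 UMIs) or less undetectable at a count of 0.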

Other observations

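Further gene groups of the Clec3b Dpt cells were read in the same way for D-CAN over WT/PBS, where 19.7% of all genes tested were higher and 10.4% lower by 2-fold or more. With so few members in a group, its counts are values only. Of 21 growth factor and receptor genes 17 passed the filter, 6 were higher by 2-fold or more and 4 lower, with a median log2 ratio of 0.51 (0.40 against Pdgfrb-TK/PBS). Gdf10, a BMP family member, was at 53.5, 50.7, 131 and 11.4 CPM in the order given above. Of 20 transcription factors 11 passed, 2 were higher and 1 lower, with a median of -0.11. Against Pdgfrb-TK/PBS 4 of 10 were higher and none lower, and the median turned to 0.55. Nr2f2, an orphan nuclear receptor of mesenchyme and veins, was at 40.1, 79.3, 200 and 44.4 CPM. Pitx1, a hindlimb homeobox gene, had UMIs only in WT/PBS, at 16.5 CPM.

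Wnt modulators were few. Of 13 genes 4 passed, 2 higher and 1 lower, with a median of 1.02 (0.22 against Pdgfrb-TK/PBS). Rspo3, an enhancer of Wnt signals, was at 26.8, 15.9, 62.8 and 6.35 CPM, and the Wnt-binding Sfrp2 at 80.3, 203, 172 and 454 CPM, so that the order of the libraries was opposite for the pair among the wild-type hosts. Of 10 retinoid and steroid genes 6 passed, 3 were higher and none lower, with a median of 0.87. Against Pdgfrb-TK/PBS 2 of 7 were higher and 2 lower, and the median turned to -0.14. Of 15 hypoxia and glycolysis genes 11 passed, 2 were lower and none higher, with a median of -0.59 (-0.61 against Pdgfrb-TK/PBS). Of 10 p53 target genes 5 passed, 2 were lower and none higher, with a median of -0.64, which turned to 0.30 against Pdgfrb-TK/PBS with none of 4 past 2-fold. The 18 cytokine genes, of which 14 passed with 2 higher and 2 lower, had a median of 0.14, and 1.16 against Pdgfrb-TK/PBS. For 17 TGF-beta and BMP genes, of which 10 passed with 1 higher and 1 lower, it was -0.27, and 0.17 against Pdgfrb-TK/PBS.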
